A study of Mus musculus with 6 samples.

Results

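Immediate early genes are described here in N2a cells, a mouse neuroblastoma line, after treatment with RSL3. The 10 genes were chosen by name: the AP-1 genes Jun, Junb, Jund, Fos and Fosb, the zinc finger factor gene Egr1, and Ier2, Ier5, Btg2 and Dusp1. Of these, 9 were matched by symbol among the 11609 mRNA genes of the tables, and Fosb was not analysed here. The genes were chosen with earlier results of these data known. Each library was made from N2a cells, labelled as neurons, that had been differentiated with 10 µM retinoic acid for 96 h in medium with 2% serum. The 3 RSL3 libraries came from such cells given 5 µM RSL3 for 24 h, and the 3 DMSO libraries from such cells given the solvent alone. RSL3 inhibits the lipid peroxide-reducing enzyme GPX4 and induces ferroptosis, a form of cell death driven by lipid peroxidation. N2a is a single tumour line. The labels do not state separate cultures for the replicates, so p-values measure only the spread between these libraries, which may be technical.

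Immediate early genes are transcribed within minutes of a stimulus from factors already present in the cell, without new protein synthesis. Growth factor, calcium and stress signals reach them through MAP kinases and the DNA-bound factors SRF, ELK and CREB, and most of their mRNAs are short-lived. In neurons they are widely read as marks of recent activity. Their products are mainly transcription factors, such as the Jun and Fos proteins that pair to form AP-1, and brakes on the signal, such as the phosphatase DUSP1. The libraries here were taken 24 h after RSL3 was added and so show a late state.

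With RSL3, Jund rose and Egr1 fell, and the other 7 members did not pass the test. Jund, the member with the highest level in both groups, averaged 73.6 ± 10.3 FPKM in RSL3 libraries and 47.8 ± 2.80 FPKM in DMSO libraries (SD, n = 3 each), a ratio of 1.54. Egr1 averaged 10.4 ± 1.47 FPKM in RSL3 libraries and 15.5 ± 0.362 FPKM in DMSO libraries (SD, n = 3 each), a ratio of 0.673. FPKM counts fragments scaled by transcript length and by the mapped fragments of the library. It does not correct for the GC content of a transcript, so levels set side by side between genes are approximate. The test was limma on log2(FPKM + 1) over the 10590 mRNAs that reached 1 FPKM in 3 or more libraries, two-sided, with Benjamini-Hochberg adjustment over all of them and a threshold of 0.05. All 9 members passed this filter on low values. Of the tested mRNAs 2.46% were called higher, 3.92% lower and 6.38% in either direction, beside 1 member higher and 1 lower. The median log2 fold change was 0.15 over the 9 members and -0.031 over all tested mRNAs. In 5 members the 2 groups did not overlap, 4 of them higher with RSL3, and the same lack of overlap held for 33.0% of all tested mRNAs. Among all tested mRNAs 261 were called higher and 415 lower, and this split turned to 350 and 329 with quantile normalization and to 503 and 261 with a common sum of FPKM. In RNA from whole cultures, fewer cells with a transcript and less of it per cell cannot be told apart.

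**Figure D1:**
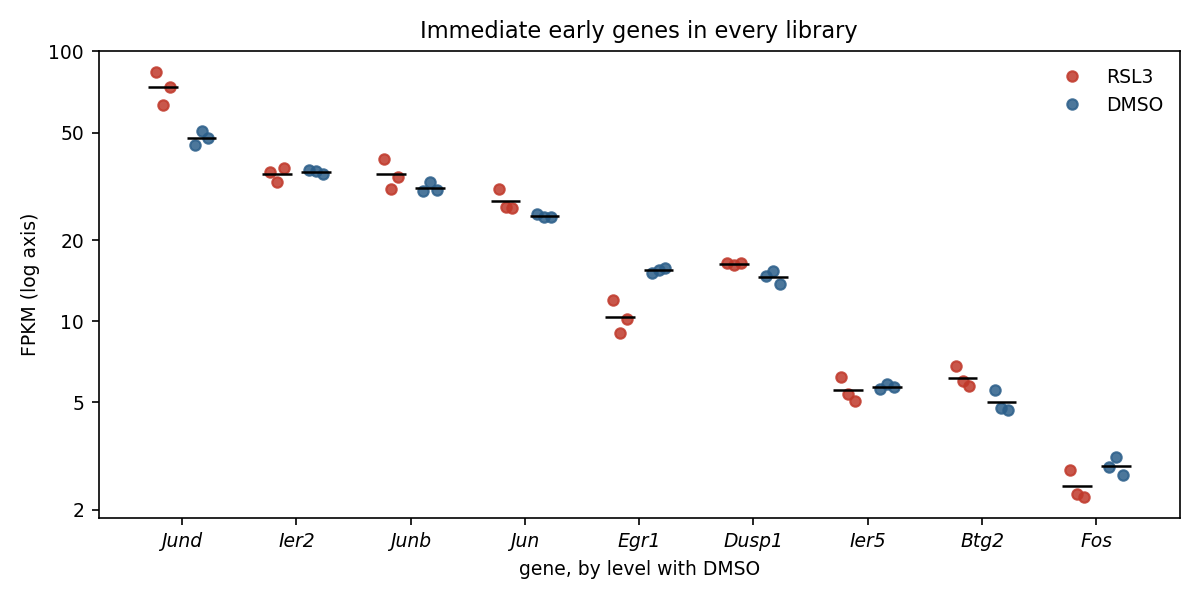
FPKM of the 9 measured immediate early genes on a log axis, with 1 point for each library, RSL3 in red and DMSO in blue, and a bar at each group's mean (n = 3). The 3 RSL3 points of Jund lie above and those of Egr1 below every DMSO point, while the points of Ier2, Junb, Ier5 and Fos overlap.

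The libraries differed in ways that touch these genes. Across tested mRNAs, the deviation of a library from its group mean correlated with the GC content of the transcript at 0.70, -0.70 and -0.30 in RSL3 replicates 1, 2 and 3 (Spearman, over genes, which are not replicates), and between -0.13 and 0.20 in DMSO libraries. RSL3 replicate 1 was the highest RSL3 library for 7 of the 9 members. The transcripts of 8 members were richer in GC than the median of tested mRNAs. Median GC was 55.5% over the 9 members and 50.5% over tested mRNAs. The median log2 fold change of the members was not computed with the GC and length trends removed. The summed mRNA values ranged from 200135 to 213765 FPKM in RSL3 libraries and from 220605 to 225295 FPKM in DMSO libraries. Of 10 markers of neurons and neuroblasts, 7 were matched, and they summed to between 200.4 and 207.3 FPKM in RSL3 libraries and between 231.6 and 237.6 FPKM in DMSO libraries. Among them Tubb3, a neuronal tubulin, averaged 115 FPKM in RSL3 libraries and 116 FPKM in DMSO libraries, and 3 were called lower, among them Mycn and Gap43. All 8 hepatocyte markers were called lower, with sums between 14.4 and 25.2 FPKM in RSL3 libraries and between 58.3 and 81.3 FPKM in DMSO libraries. The matched markers of macrophages (1 of 6), fibroblasts (2 of 5), endothelium (1 of 4) and oligodendrocytes (1 of 4) each summed to at most 5.02 FPKM in any library, and none of the 4 astrocyte markers was matched. The part of these differences in the results on single members was not tested, except where a fit with the GC and length trends removed is given.

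The 3 Jun genes encode the AP-1 subunits that can bind DNA as Jun-Jun or Jun-Fos dimers. JunD is present in resting cells of many tissues, unlike the strongly inducible c-Jun and JunB. Jund (ENSMUSG00000071076.6) lies on chromosome 8 at 70698949 to 70700616, plus strand, in GRCm38, with a single exon. It stood at 83.9, 63.4 and 73.6 FPKM in RSL3 replicates 1, 2 and 3, against 45.0, 50.5 and 47.8 FPKM in DMSO replicates 1, 2 and 3. The groups were separate, and the lowest RSL3 library lay above the highest DMSO library. The log2 fold change was 0.61 ± 0.11 (SE; 95% interval 0.36 to 0.85; adjusted p = 0.0197), the 330th smallest p of the tested mRNAs. Its transcript, 67.1% GC, was richer in GC than 99.8% of tested transcripts. With the GC and length trends of the libraries removed, the log2 fold change was 0.55 (adjusted p = 0.00221), and without RSL3 replicate 1 it was 0.51 (adjusted p = 0.0142). The call was lost without RSL3 replicate 3 (adjusted p = 0.0839) and without DMSO replicates 1, 2 and 3 (adjusted p = 0.101, 0.0735 and 0.0864), with log2 fold changes of 0.56 to 0.65. The annotation places the lncRNA gene Gm11175 on the opposite strand within Jund, at 70699162 to 70700080. Gm11175 stood at 1.73, 1.45 and 1.46 FPKM in RSL3 libraries and at 0.881, 1.89 and 1.27 FPKM in DMSO libraries, which overlap. The sources do not state whether reads were counted by strand, and without strand the reads of both genes cannot be told apart.

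Jun, the gene of c-Jun, stood higher in RSL3 libraries by less than the test could call. Jun (ENSMUSG00000052684.4, chromosome 4, 95049034 to 95052222, minus strand) also has a single exon. It stood at 31.0, 26.6 and 26.3 FPKM in RSL3 libraries and at 24.9, 24.4 and 24.3 FPKM in DMSO libraries. The groups did not overlap, RSL3 replicate 1 was the highest library, and RSL3 replicates 2 and 3 lay just above the DMSO values. Its log2 fold change of 0.18 had a 95% interval of -0.0051 to 0.36 (adjusted p = 0.217). Junb (ENSMUSG00000052837.6, chromosome 8, 84974484 to 84978718, minus strand) is often set against Jun as a weaker activator. Junb stood at 40.1, 30.9 and 34.4 FPKM in RSL3 libraries and at 30.4, 32.9 and 30.6 FPKM in DMSO libraries, so that RSL3 replicate 2 fell among the DMSO values. Its log2 fold change was 0.15, with a 95% interval of -0.076 to 0.39 (adjusted p = 0.385). The difference of Junb was 0.058 without RSL3 replicate 1, 0.24 without RSL3 replicate 2 and 0.085 with the GC and length trends removed, and that of Jun was 0.10 without RSL3 replicate 1.

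The make-up of the Jun transcripts in each library is given as a description, since the shares and ratios were not tested and Jun and Junb also stood higher with RSL3. Jund made up 54.1%, 52.4% and 54.8% of the summed Jun, Junb and Jund FPKM in RSL3 libraries, against 44.9%, 46.9% and 46.5% in DMSO libraries. The share of Junb was 25.7% ± 0.151 in RSL3 libraries and 30.2% ± 0.358 in DMSO libraries, and that of Jun 20.5% ± 1.28 in RSL3 libraries and 23.7% ± 1.11 in DMSO libraries (SD, n = 3 each). The 3 shares sum to the whole, so a rise of Jund lowers the others by construction. The ratio of Jund to Jun was 2.63 ± 0.218 in RSL3 libraries and 1.95 ± 0.134 in DMSO libraries (SD, n = 3 each). These ratios within a library are untouched by any scaling of that library as a whole, but a GC trend can shift them. The transcripts are 67.1% GC for Jund, 62.6% for Junb and 55.5% for Jun. The ratios were not computed with that trend removed.

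**Figure D2:**
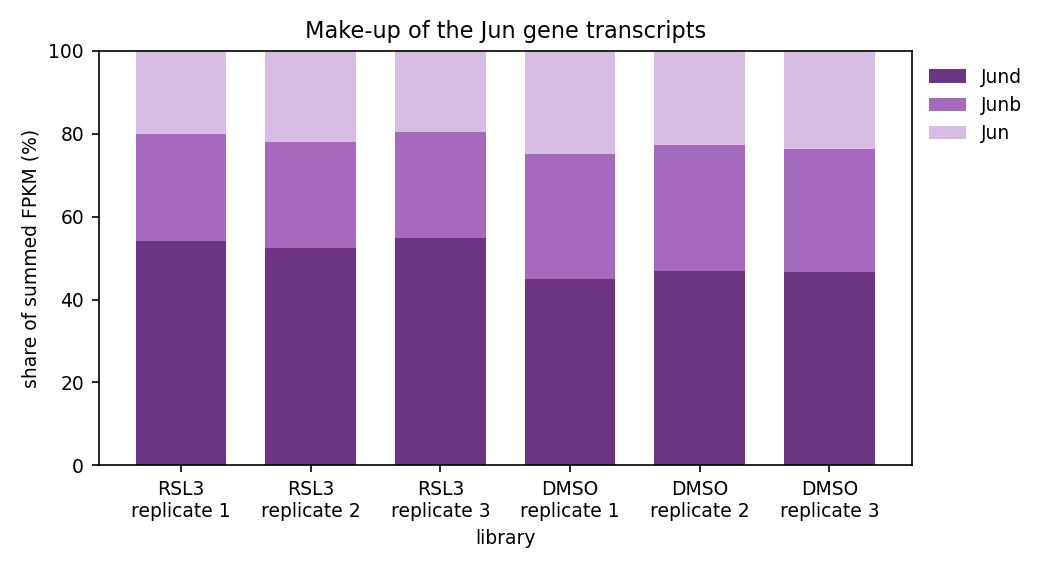
Share of each Jun gene in the summed FPKM of Jund, Junb and Jun, as 1 stacked bar for each library. Jund takes 52.4% to 54.8% in the RSL3 libraries and 44.9% to 46.9% in the DMSO libraries.

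The Jun genes are relatives, and reads from one could be counted for another only where their transcripts are alike. In the GENCODE M21 transcripts, the longest run of bases that Jund shares exactly with Jun is 20 bases, in the coding part of both, and that shared with Junb is 14 bases. No pair among the 9 members shares a longer run than the 20 bases of Jun and Jund. Inexact matches were not searched, and whether reads were counted for the wrong gene was not tested. The shared run is shown in capitals with the bases around it, read 5′ to 3′ along the transcript. The run starts at base 815 of the Jund transcript and at base 1642 of the Jun transcript.
Jund: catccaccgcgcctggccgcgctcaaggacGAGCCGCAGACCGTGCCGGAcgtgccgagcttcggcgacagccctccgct
Jun: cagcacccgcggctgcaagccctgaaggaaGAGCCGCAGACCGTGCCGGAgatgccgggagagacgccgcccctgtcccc

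Fos, whose product must pair with a Jun protein to bind DNA as AP-1, had the lowest level of the 9 members in both groups. Fos (ENSMUSG00000021250.13, chromosome 12, 85473890 to 85477273, plus strand) stood at 2.82, 2.28 and 2.24 FPKM in RSL3 libraries and at 2.87, 3.15 and 2.69 FPKM in DMSO libraries. RSL3 replicates 2 and 3 were below every DMSO library, and RSL3 replicate 1 lay among them. Fos had a log2 fold change of -0.18, with a 95% interval of -0.42 to 0.049 (adjusted p = 0.306). The summed FPKM of the Jun genes was 56.0 ± 3.60 times that of Fos in RSL3 libraries and 35.8 ± 2.08 times in DMSO libraries (SD, n = 3 each). A gene so low is shrunk most by the added 1 FPKM, and with 0.1 FPKM added its log2 fold change was -0.24 (adjusted p = 0.310).

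Egr1 encodes a zinc finger transcription factor that binds GC-rich sites and is among the first genes induced by growth factors and by neuronal activity. Egr1 (ENSMUSG00000038418.7, chromosome 18, 34859823 to 34864984, plus strand) stood at 12.0, 9.04 and 10.2 FPKM in RSL3 libraries, against 15.1, 15.5 and 15.8 FPKM in DMSO libraries. All RSL3 values lay below all DMSO values, and the DMSO libraries were close to each other. The log2 fold change was -0.54 ± 0.10 (SE; 95% interval -0.77 to -0.30; adjusted p = 0.0250). Its transcript is 57.3% GC, and in RSL3 replicate 1, the library in which GC-rich transcripts stood higher, Egr1 was closest to the DMSO level. Without that library the log2 fold change was -0.63 (adjusted p = 0.00483), and with the GC and length trends removed it was -0.61 (adjusted p = 0.00241). The call was lost when the libraries were scaled to each other, with adjusted p-values of 0.0551 by median ratios, 0.0567 by quantiles and 0.0664 by a common sum. It was also lost without RSL3 replicate 3 (adjusted p = 0.0976) and without DMSO replicates 1, 2 and 3 (adjusted p = 0.108, 0.115 and 0.110). The log2 fold change stayed between -0.63 and -0.41 in all of the 17 alternative fits.

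**Figure D3:**
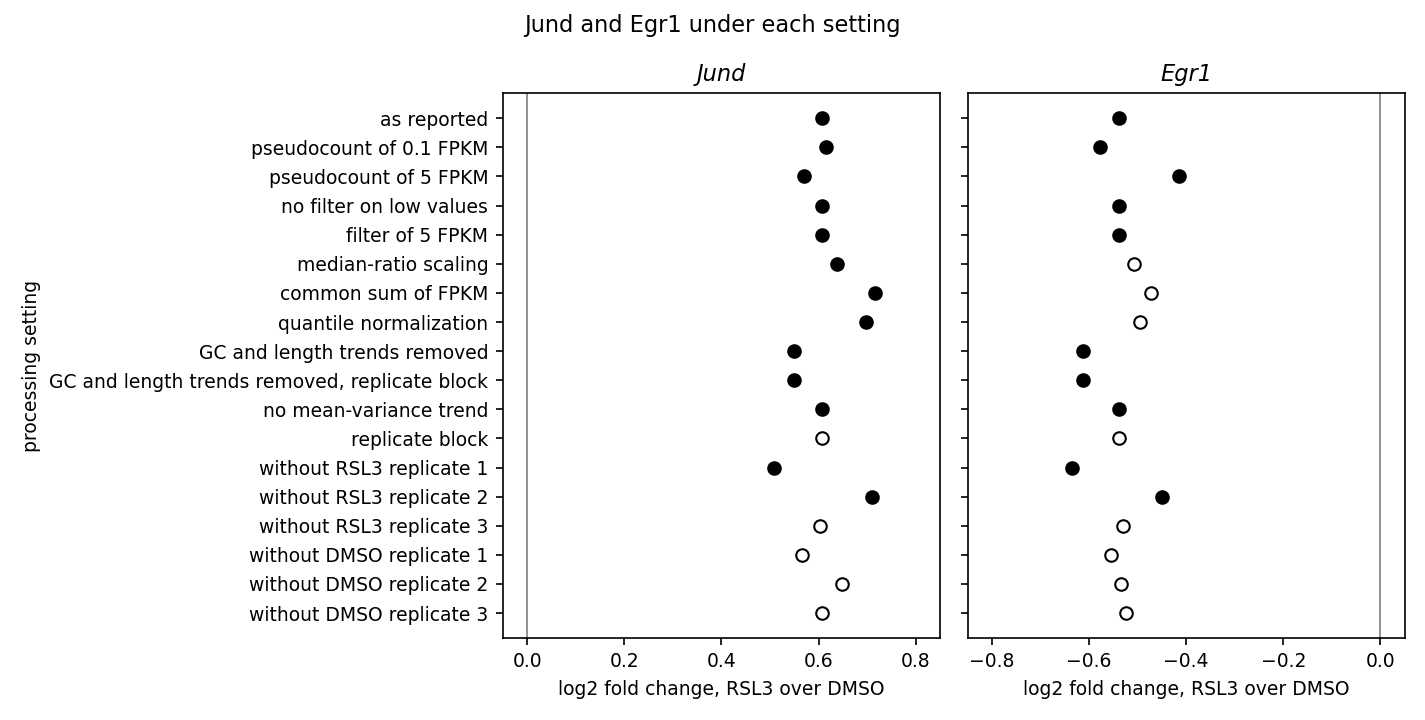
Log2 fold change of Jund and Egr1 as reported and under 17 other settings, filled where the adjusted p was under 0.05 and open where it was not. All Jund values lie between 0.51 and 0.72 and all Egr1 values between -0.63 and -0.41, while the call itself was lost in 5 settings for Jund and 8 for Egr1.

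Ier2 and Ier5 encode related nuclear proteins, and Ier5 is known to act on the heat shock factor HSF1. Ier2 (ENSMUSG00000053560.4, chromosome 8, 84661331 to 84662852, minus strand) stood at 35.9, 32.7 and 37.1 FPKM in RSL3 libraries and at 36.4, 35.9 and 35.1 FPKM in DMSO libraries. The RSL3 values spread on both sides of the DMSO values. Ier2 had a log2 fold change of -0.024, with a 95% interval of -0.18 to 0.13 (adjusted p = 0.864), and its sign turned under each of the 3 scalings. Ier5 (ENSMUSG00000056708.5, chromosome 1, 155096361 to 155099636, minus strand) stood at 6.21, 5.36 and 5.08 FPKM in RSL3 libraries and at 5.59, 5.84 and 5.70 FPKM in DMSO libraries. Its log2 fold change was -0.038, with a 95% interval of -0.25 to 0.17 (adjusted p = 0.839), and it stood at 0.053 with a common sum. The Ier5 values of RSL3 replicates 2 and 3 lay below all DMSO values and that of RSL3 replicate 1 above them. Ier2, Ier5 and the 3 Jun genes have a single exon, a form that 3.07% of the tested mRNAs share.

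Btg2 and Dusp1 encode feedback regulators, and both stood higher in all 3 RSL3 libraries without passing. Btg2 slows proliferation, recruits the CCR4-NOT deadenylase to mRNAs and is a target of p53. Btg2 (ENSMUSG00000020423.6, chromosome 1, 134075170 to 134079120, minus strand) stood at 6.80, 5.98 and 5.75 FPKM in RSL3 libraries, against 5.56, 4.78 and 4.70 FPKM in DMSO libraries. The groups were separate by a narrow margin, between RSL3 replicate 3 and DMSO replicate 1. Btg2 had a log2 fold change of 0.26, with a 95% interval of 0.028 to 0.48 (unadjusted p = 0.0324, adjusted p = 0.163 in limma). An unadjusted p under 0.05 was found for 24.1% of all tested mRNAs. Dusp1 encodes a nuclear phosphatase that switches off p38, JNK and ERK. Dusp1 (ENSMUSG00000024190.6, chromosome 17, 26505590 to 26562128, minus strand) stood at 16.4, 16.1 and 16.5 FPKM in RSL3 libraries and at 14.7, 15.4 and 13.8 FPKM in DMSO libraries. The RSL3 values were close to each other and above all DMSO values. Dusp1 had a log2 fold change of 0.15, with a 95% interval of -0.0052 to 0.31 (adjusted p = 0.218).

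**Figure D4:**
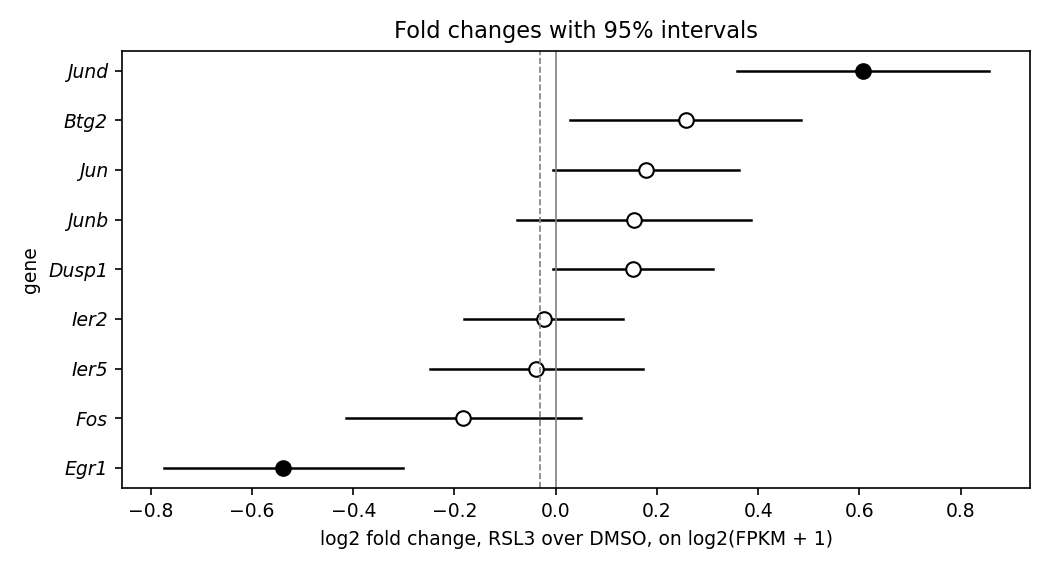
Log2 fold change of each member, RSL3 over DMSO on log2(FPKM + 1), with its 95% interval, filled where the adjusted p was under 0.05. The dashed line is the median of all tested mRNAs at -0.031. The intervals, which are not adjusted for the number of mRNAs tested, do not reach 0 for Jund, Egr1 and Btg2. In limma 24.1% of all tested mRNAs had an unadjusted p under 0.05, and Btg2 was not called.

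The order of the members by level was nearly the same in both groups. From high to low it was Jund, Ier2, Junb, Jun, Dusp1, Egr1, Btg2, Ier5 and Fos with RSL3, and Jund, Ier2, Junb, Jun, Egr1, Dusp1, Ier5, Btg2 and Fos with DMSO. The order differed by 2 neighbouring pairs, Egr1 with Dusp1 and Ier5 with Btg2. With RSL3 the values of Ier2 and Junb, of Junb and Jun, and of Btg2 and Ier5 overlapped, and with DMSO those of Egr1 and Dusp1. The ratio of Egr1 to Dusp1 was 0.729, 0.560 and 0.619 in RSL3 libraries, against 1.03, 1.01 and 1.14 in DMSO libraries. In DMSO libraries the level of Jund was above that of 92.5% of tested mRNAs and Egr1 above 72.4%, and in RSL3 libraries Fos was above 16.4%.

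The promoters of 7 members were found in RefSeq tables of GRCm38.p6, those of Btg2, Ier5, Jun, Jund, Junb, Fos and Dusp1, and the 250 bases before each start were searched on both strands for sites of the factors that drive these genes. The full CRE, TGACGTCA, to which CREB binds, was found before Btg2 and Dusp1 and in 1.55% of 32851 such windows. Its shorter core TGACG, which the full CRE also contains, was found before Btg2, Junb, Fos and Dusp1 and in 17.8% of windows. The AP-1 variant TGACATCA was found before Jun (2.93% of windows), the EGR motif GCGNGGGCG before Btg2 (4.70%), and the antioxidant response motif TGACNNNGC before Dusp1 (10.2%). The AP-1 motif TGANTCA (6.75%) and the CArG box bound by SRF (1.47%) were in none of the 7 windows. Bases outside these windows were not searched, and Egr1 and Ier2 had no window. The lack of a motif here therefore does not show that a gene lacks such a site. The RefSeq start of Jund lies 1210 bases before its GENCODE start, so its window, which held none of these motifs, is not the sequence next to the transcript used above. That of Dusp1 lies 53656 bases from the outer end of its GENCODE gene. The windows of the 4 members with a motif that matched a full or variant site or 2 copies of the core are shown, read 5′ to 3′ on the gene's strand and ending at the base before the start, with the motifs in capitals. Jun (chr4:95052223-95052472), Btg2 (chr1:134079156-134079405) and Dusp1 (chr17:26508473-26508722) lie on the minus strand and Fos (chr12:85473640-85473889) on the plus strand.
Jun: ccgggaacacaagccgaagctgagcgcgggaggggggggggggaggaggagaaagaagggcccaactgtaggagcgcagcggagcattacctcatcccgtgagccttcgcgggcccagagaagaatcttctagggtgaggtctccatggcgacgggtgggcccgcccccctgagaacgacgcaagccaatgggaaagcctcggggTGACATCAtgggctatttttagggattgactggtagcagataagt
Fos: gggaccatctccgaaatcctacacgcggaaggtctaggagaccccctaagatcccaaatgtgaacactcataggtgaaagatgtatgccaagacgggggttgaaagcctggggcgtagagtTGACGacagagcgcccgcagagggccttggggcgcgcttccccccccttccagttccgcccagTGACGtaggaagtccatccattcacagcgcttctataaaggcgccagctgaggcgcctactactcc
Btg2: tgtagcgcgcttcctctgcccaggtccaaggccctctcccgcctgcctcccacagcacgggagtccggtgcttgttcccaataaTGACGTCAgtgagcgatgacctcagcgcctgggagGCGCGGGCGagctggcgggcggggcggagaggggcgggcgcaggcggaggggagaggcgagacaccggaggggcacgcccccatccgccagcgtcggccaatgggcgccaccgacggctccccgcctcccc
Dusp1: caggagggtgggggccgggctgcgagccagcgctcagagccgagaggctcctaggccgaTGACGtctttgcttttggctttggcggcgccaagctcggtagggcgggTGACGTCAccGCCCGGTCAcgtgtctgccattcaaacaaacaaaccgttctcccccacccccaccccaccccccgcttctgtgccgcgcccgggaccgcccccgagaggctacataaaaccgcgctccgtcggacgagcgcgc
In the Jun window the variant lies 45 to 38 bases before the start, and the full CRE lies 166 to 159 bases before it in Btg2 and 143 to 136 bases before it in Dusp1. The log2 fold changes of these 4 genes, between -0.18 and 0.26, did not pass the test.

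The pathway around the members was followed in 9 wider lists that together hold 206 genes. Of 170 that were tested, 8 rose and 1 fell, or 5.29% beside the 6.38% called among all tested mRNAs. An unadjusted p under 0.05 in limma was found for 33 of them, and for 2555 or 24.1% of all tested mRNAs. The counts at unadjusted p in these lists stand beside that share. The lists were chosen with earlier results of these data known. The share called in any list, here and below, is thus a description and no test of that list. In the MAP kinase cascade, which carries the signal to these genes, 0 of 33 passed in limma, and 4 had an unadjusted p under 0.05 (24.1% of all tested mRNAs), among them Hras, Mapk3 and Araf. Mapk3, the gene of the kinase ERK1, averaged 35.2 FPKM in RSL3 libraries and 29.9 FPKM in DMSO libraries (0.23, adjusted p = 0.122). Its groups were separate. Hras, a GTPase gene upstream of it, stood at 6.34 FPKM in RSL3 libraries and 7.87 FPKM in DMSO libraries (log2 fold change -0.27, adjusted p = 0.0655). It passed in 2 of 17 alternative fits, without RSL3 replicate 1 (adjusted p = 0.0395) and with the trends removed (0.0160). Of 17 upstream factors of the SRF, ELK and CREB type, 0 passed in limma and 1 had an unadjusted p under 0.05 (24.1% of all), the gene of the membrane-anchored factor Creb3 (0.26, adjusted p = 0.107). Srf, the factor that binds the CArG box, stood at 14.8 FPKM in RSL3 libraries and 17.5 FPKM in DMSO libraries (-0.23, adjusted p = 0.241). Its log2 fold change was -0.34 without RSL3 replicate 1 (adjusted p = 0.0304) and -0.32 with the trends removed (adjusted p = 0.0118), but -0.14 without RSL3 replicate 2 (adjusted p = 0.377) and -0.15 with a common sum (adjusted p = 0.536). Srf passed in 3 of 17 alternative fits. Elk1, an ETS partner of SRF, stood 0.18 higher (adjusted p = 0.342).

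Among 16 tested AP-1 and ATF partners of the Jun and Fos proteins, 2 rose and 0 fell, both small Maf genes. The list median was 0.11, and 12.5% were called, beside 6.38% of all tested mRNAs. Maff stood at 19.6, 16.0 and 19.9 FPKM in RSL3 libraries, against 12.2, 12.1 and 11.6 FPKM in DMSO libraries (0.58 ± 0.09 SE, adjusted p = 0.0159). Mafk stood at 8.59, 8.12 and 8.68 FPKM in RSL3 libraries, against 6.55, 6.50 and 6.58 FPKM in DMSO libraries (0.33 ± 0.07 SE, adjusted p = 0.0409). Small Maf proteins pair with NRF2 and other basic leucine zipper factors. Both calls were lost without RSL3 replicate 3 and without each DMSO library in turn, with adjusted p-values of up to 0.178 and log2 fold changes of 0.53 to 0.60 for Maff and 0.31 to 0.33 for Mafk. The stress factor gene Atf3 stood at 32.1 FPKM in RSL3 libraries and 30.9 FPKM in DMSO libraries (adjusted p = 0.793), and the Fos relative Fosl2 at 10.1 FPKM in RSL3 libraries and 8.85 FPKM in DMSO libraries (adjusted p = 0.254). Fosl1 was not analysed here.

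The relatives of Egr1 were low, and the 2 measured ones did not reach the level required for the test. Egr2 stood at 0.419, 0.509 and 0.496 FPKM in RSL3 libraries, against 0.686, 0.758 and 0.621 FPKM in DMSO libraries. Egr3, itself inducible by neuronal activity, stood at 1.04, 0.950 and 1.01 FPKM in RSL3 libraries, against 0.517, 0.494 and 0.577 FPKM in DMSO libraries. The groups of both genes were separate, Egr2 on the side of Egr1 and Egr3 on the other. In the fit with no filter on low values, the log2 fold change was 0.39 for Egr3 (adjusted p = 0.0228) and -0.19 for Egr2 (adjusted p = 0.159). The corepressor gene Nab2, whose product binds EGR proteins, stood at 7.32 FPKM in RSL3 libraries and 8.30 FPKM in DMSO libraries (-0.16, adjusted p = 0.299). The 2 tested genes of this list were Nab1 and Nab2, and 0 of these 2 had an unadjusted p under 0.05 in limma. That count says nothing of Egr2 and Egr3, which were not tested in the main fit.

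Of 16 tested relatives of Dusp1, 3 rose and 0 fell, with a list median of 0.086. That is 18.8% called, beside 6.38% of all tested mRNAs. Dusp4, a nuclear phosphatase of the same subfamily as Dusp1, stood at 82.7, 74.8 and 86.2 FPKM in RSL3 libraries, against 59.3, 60.7 and 58.4 FPKM in DMSO libraries (0.44 ± 0.07 SE, adjusted p = 0.0140). Dusp4 was higher than every member in DMSO libraries, and the groups were separate. Dusp9 averaged 3.49 FPKM in RSL3 libraries and 2.21 FPKM in DMSO libraries (0.48, adjusted p = 0.0259). Dusp26 averaged 2.76 FPKM in RSL3 libraries and 1.71 FPKM in DMSO libraries (0.47, adjusted p = 0.0263). The calls of all 3 were lost without RSL3 replicate 3 or any DMSO library, with adjusted p-values between 0.0598 and 0.131. In those fits the log2 fold change was 0.40 to 0.46 for Dusp4, 0.43 to 0.51 for Dusp9 and 0.43 to 0.49 for Dusp26. Dusp6, a cytoplasmic phosphatase for ERK, averaged 27.4 FPKM in RSL3 libraries and 31.2 FPKM in DMSO libraries (-0.19, adjusted p = 0.236), without overlap, and its log2 fold change was -0.10 without RSL3 replicate 1.

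Among 27 tested early response effectors and regulators, 2 rose and 1 fell, or 11.1% beside 6.38% of all tested mRNAs. These 3 genes passed whichever single library was left out. Phlda1, a growth factor-induced gene linked to cell death, stood at 14.6, 11.2 and 12.3 FPKM in RSL3 libraries, against 5.55, 6.80 and 6.87 FPKM in DMSO libraries (0.88 ± 0.12 SE, adjusted p = 0.00915). Rhob, a small GTPase gene of the immediate early class, averaged 30.5 FPKM in RSL3 libraries and 19.8 FPKM in DMSO libraries (0.60, adjusted p = 0.00492). Per2, a repressor of the circadian clock, averaged 2.54 FPKM in RSL3 libraries and 4.81 FPKM in DMSO libraries (-0.71, adjusted p = 0.00538). Ier3 stood at 23.1, 21.5 and 21.5 FPKM in RSL3 libraries, against 16.6, 15.3 and 18.7 FPKM in DMSO libraries (0.37). Its adjusted p was 0.05003, just above the threshold, and it passed in 5 of the alternative fits. The neuronal activity gene Arc stood at 18.1 FPKM in RSL3 libraries and 16.7 FPKM in DMSO libraries (adjusted p = 0.576), and Ier5l at 3.09 FPKM in RSL3 libraries and 2.81 FPKM in DMSO libraries (adjusted p = 0.615).

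Among 21 tested other early response transcription factors 2 rose and 0 fell, Maff and Klf6, with a list median of 0.033. That is 9.52% called, beside 6.38% of all tested mRNAs. Klf6, a zinc finger factor gene, stood at 20.1, 25.3 and 23.7 FPKM in RSL3 libraries, against 16.8, 16.1 and 16.9 FPKM in DMSO libraries (0.44, adjusted p = 0.0347). The Klf6 call held without RSL3 replicate 1 and was lost without any other single library (adjusted p between 0.0574 and 0.149), with log2 fold changes of 0.38 to 0.46. Myc averaged 61.6 FPKM in RSL3 libraries and 68.4 FPKM in DMSO libraries (-0.15, adjusted p = 0.264). Without RSL3 replicate 1 the log2 fold change of Myc was -0.22 (adjusted p = 0.0343), the only 1 of 17 alternative fits in which it passed, and with a common sum it was -0.054 (adjusted p = 0.762). Nr4a1, an orphan receptor gene induced by activity, stood at 6.46 FPKM in RSL3 libraries and 6.39 FPKM in DMSO libraries (adjusted p = 0.989).

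Of 23 tested genes of the mRNA decay machinery with which Btg2 works, 0 passed in limma and 2 had an unadjusted p under 0.05 (24.1% of all). The lowest p was that of Tob2, a relative of Btg2 (0.36, adjusted p = 0.117). Tob2 stood at 32.2 FPKM in RSL3 replicate 1, 23.0 and 25.8 FPKM in RSL3 replicates 2 and 3, and averaged 20.6 FPKM in DMSO libraries. Zfp36, which speeds the decay of early response mRNAs, averaged 3.92 FPKM in RSL3 libraries and 3.25 FPKM in DMSO libraries (adjusted p = 0.364), with a log2 fold change of 0.20, and of 0.073 without RSL3 replicate 1. Of 17 tested p53 targets, the class to which Btg2 belongs, 0 passed in limma and 2 had an unadjusted p under 0.05 (24.1% of all), Phlda3 (0.27, adjusted p = 0.148) and Trp53inp1 (0.48, adjusted p = 0.172).

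**Figure D5:**
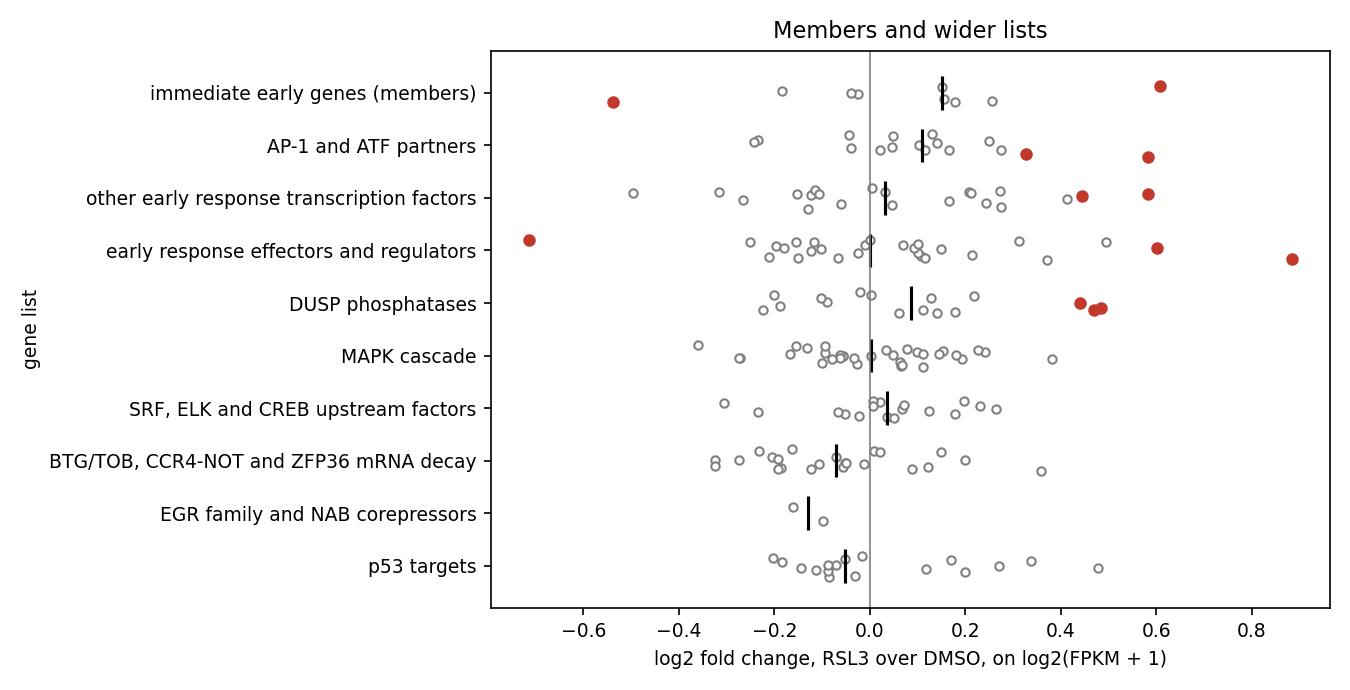
Log2 fold change of every tested gene of the members and of the 9 wider lists, filled red where the adjusted p was under 0.05, with a bar at each list's median. The called genes are 1 higher and 1 lower member, and 8 higher and 1 lower gene of the wider lists, of which Maff stands in 2 lists.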

How the data were processed

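RNA-seq libraries of N2a cells were compared, 3 with RSL3 and 3 with DMSO, grouped by their labels. The authors deposited 1 table of FPKM values per library for mRNAs and 1 for lncRNAs. Per the submitters' processing notes, the tools included HISAT2, cutadapt and StringTie 1.3.3, with the genome build GRCm38. No source states the annotation release or the filters. The tables give no counts, so the read depth is unknown and no counting interval is given. Circular RNA tables were not used here.

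FPKM values were analysed as log2(FPKM + 1) with limma 3.58.1 in R 4.3.3, using moderated variances with a mean-variance trend and no covariate. mRNAs at 1 FPKM or more in at least 3 libraries were tested, 10590 in all, and p-values were adjusted by Benjamini-Hochberg over them. With 3 libraries against 3, an exact permutation test of a single gene cannot go below a two-sided p of 0.1, so none is given. Fold changes on this scale understate the change of low genes. Of the 11609 mRNA genes, 11595 had an entry in GENCODE M21, which gave positions, transcript length and GC content.

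The members and the wider lists were chosen with earlier results of these data known. The genes named from the wider lists are those fixed by role and those that passed the test, and Mapk3, Araf and Trp53inp1 were added after their values were seen. Alternatives changed the pseudocount (0.1 and 5 FPKM), the filter (none and 5 FPKM), the scaling, the variance model, the removal of GC and length trends, a replicate block, and left out each library in turn. The procedure was run on simulated data in which the noise of each gene was drawn independently. Such data lack the GC trends shared by genes here, so they do not measure false calls under those trends. Some genes of the lists are counted but not reported here by name.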

Additional observations from a re-analysis of the deposited data

How the results depend on the processing

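Direction was kept in all 17 alternatives for Jund and Egr1, but only the scalings and the removal of trends could have turned it. The groups of both genes did not overlap, so leaving out a library or changing the pseudocount could not turn the sign. The filter, the variance model and the replicate block left their log2 fold changes as they were. The number of mRNAs called was 676 as reported, 1777 with the GC and length trends removed, and 145 to 1299 with each library left out. Of the members, 2 were called as reported, 1 with median-ratio scaling, 1 with a common sum, 1 with quantile normalization, and 0 to 2 with each library left out (0 without RSL3 replicate 3 or any DMSO library). Of the wider lists, 9 genes were called as reported, 28 with the trends removed, 14 with the trends removed and a replicate block, and 3 to 18 with each library left out.

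The deviations of same-numbered libraries correlated over genes at -0.15, 0.049 and -0.062. The labels state no pairing, and the GC trends of single libraries enter these correlations, so they cannot decide whether the numbers pair the libraries. With a replicate block 253 mRNAs, 0 members (Jund adjusted p = 0.0637, Egr1 0.0703) and 4 genes of the wider lists were called by limma.

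The sign turned for Ier2 (0.0069 with median-ratio scaling, 0.076 with a common sum, 0.052 with quantile normalization, -0.061 to 0.027 with libraries left out). It turned for Ier5 (0.053 with a common sum, -0.11 to 0.014 with libraries left out), for Atf3 (-0.014 to 0.12 with libraries left out) and for Nr4a1 (-0.054 with the trends removed, with or without the block, and -0.090 to 0.13 with libraries left out). None of these 4 passed in any fit. The cause of these changes was not tested. Leaving out a library also leaves fewer libraries to estimate the spread, and with no read counts the precision of low genes such as Fos is unknown.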
